A study of Mus musculus with 6 samples.

Results

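The high-numbered Zfp genes are the mouse zinc finger genes whose symbols run from Zfp600 to Zfp999 with no letter after the number. They were taken by symbol alone from the count table, where 178 of 53819 gene symbols matched. The study measured polyadenylated RNA in gastruloids, which are 3D aggregates of mouse embryonic stem cells that elongate and pattern themselves in culture. All aggregates were made from E14, a mouse embryonic stem cell line, and the labels name a single line and no genetic change in either group. One group of 3 libraries was untreated, and the other group of 3 libraries was exposed to budesonide, a synthetic glucocorticoid, for 80 h. The comparison asks which transcripts differ when aggregates grow with the drug, in a study of cell adhesion and the loss of pluripotency. The labels do not say that the replicates came from separate cultures, so p-values here measure only the spread between these samples.

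Depth ranged from 5666168 to 7476862 counts per library. Levels are given as CPM, a gene's reads relative to the library total scaled by the TMM factors of edgeR, and a count of 3 reads came to 0.422 to 0.552 CPM. The stem cell genes Pou5f1 and Sox2 together gave 865.0 to 883 CPM in untreated and 990.1 to 1093 CPM in budesonide libraries. Of 7 naive stem cell markers, 6 were tested and all 6 rose, with a summed level of 458 to 505 CPM untreated and 1009 to 1109 CPM with budesonide. All 5 tailbud markers fell, from a summed 259 to 279 CPM to 8.03 to 12.1 CPM. Fibroblast or feeder markers summed to 16.97 to 19.2 CPM untreated and 10.7 to 11.8 CPM with budesonide, and 2 of 5 fell. Of 4 primed epiblast markers 1 rose (Otx2) and 2 fell (Fgf5, Dnmt3b), with a summed 933 to 1001 CPM untreated and 655 to 701 CPM with budesonide. Of 5 neural markers 3 were tested, of which 2 rose (Pax6, Tubb3) and 1 fell (Nes), with a summed 143 to 155 CPM untreated and 63.6 to 68.6 CPM with budesonide. Of 5 primitive endoderm markers 4 were tested and 0 passed (lowest edgeR adjusted p = 0.427), with a summed 9.58 to 11.4 CPM and 6.25 to 10.7 CPM. None of the markers in these 7 lists was at 0 reads in every library. The part of these markers in the results on the zinc finger genes was not tested. In bulk RNA, fewer cells of a type and less RNA per cell cannot be told apart.

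Most of these genes encode proteins with tandem C2H2 zinc fingers, small folds that each hold a zinc ion and read a few bases of DNA. Many also carry a KRAB box, a short domain near the protein's start that recruits Trim28 (KAP1). Trim28 in turn brings the histone methyltransferase Setdb1, heterochromatin proteins and DNA methylation, and in mouse embryonic stem cells this machinery silences endogenous retroviruses and protects imprinted loci. KRAB zinc finger genes sit in tandem clusters that grow by duplication, so neighbours are often near copies of each other. The members without a KRAB box are a mixed set that includes corepressors, chromatin-complex subunits and a ribosome assembly factor.

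Enough reads for a test were found in 158 of the 178 members, and 150 of these reached the filter level in all 6 libraries. By edgeR's quasi-likelihood test with Benjamini-Hochberg adjustment over all 17155 tested genes at 0.05, 30 members rose with budesonide and 18 fell. That is 30.4% of the tested members, against 28.7% of all tested genes. Rises made up 19.0% of the members against 15.2% of all genes, and falls 11.4% against 13.5%. The median log2 fold change was 0.09 over the tested members and -0.02 over all tested genes. A positive log2 fold change, called or not, was found in 62.7% of the members and in 48.1% of all tested genes. With library totals and no scaling factors, or with upper quartile scaling, the split was 28 higher and 26 lower in place of 30 and 18. The 48 called members all had untreated and budesonide libraries that did not overlap. Groups without overlap were found in 40.5% of the tested members and in 39.6% of all tested genes (19.8% higher and 19.8% lower with budesonide).

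Changes were small. Only 4 members, 2.53% of those tested, passed the test with a change of over 2-fold, against 5.1% of all tested genes, and all 4 of these fell (Zfp703, Zfp618, Zfp608 and Zfp647). No tested member rose by as much as 2-fold, and the highest log2 fold change was 0.95, for Zfp819.

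The members with and without a KRAB box gave different counts. A KRAB box was found by a sequence pattern in the translated GENCODE M21 models of 112 members, and 7 members had no protein model. In the other 59 members, Zfp746 among them, the pattern found no box. One part of the pattern allowed only a narrow spacing between its motifs, so boxes with a wider spacing had to match the other part. The pattern can therefore miss ordinary as well as variant boxes. Members counted as without the box may include some that carry one. Of the 97 tested KRAB members, 20 rose (20.6%) and 4 fell (4.12%), with a median log2 fold change of 0.16 and a positive value in 73.2%. Of the 55 tested members without the box, 8 rose (14.5%) and 14 fell (25.5%), with a median of -0.05 and a positive value in 43.6%. Of all tested genes 15.2% rose and 13.5% fell. Of the 20 KRAB rises, 10 belong to a run of near copies on chromosome 4, described below, so these are not separate observations. The 81 tested KRAB members elsewhere gave 10 rises (12.3%) and 4 falls (4.94%). The differences between these shares were not tested. The 14 falls without a KRAB box became 9 with DESeq2 and 18 with upper quartile scaling or no scaling factors. The 4 falls among KRAB members were 1 with DESeq2, 8 with either of those 2 scalings, and 2 without untreated replicate 3 or without budesonide replicate 3. Rises among them numbered 16 to 22 under the alternatives, against 20.

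**Figure D1:**
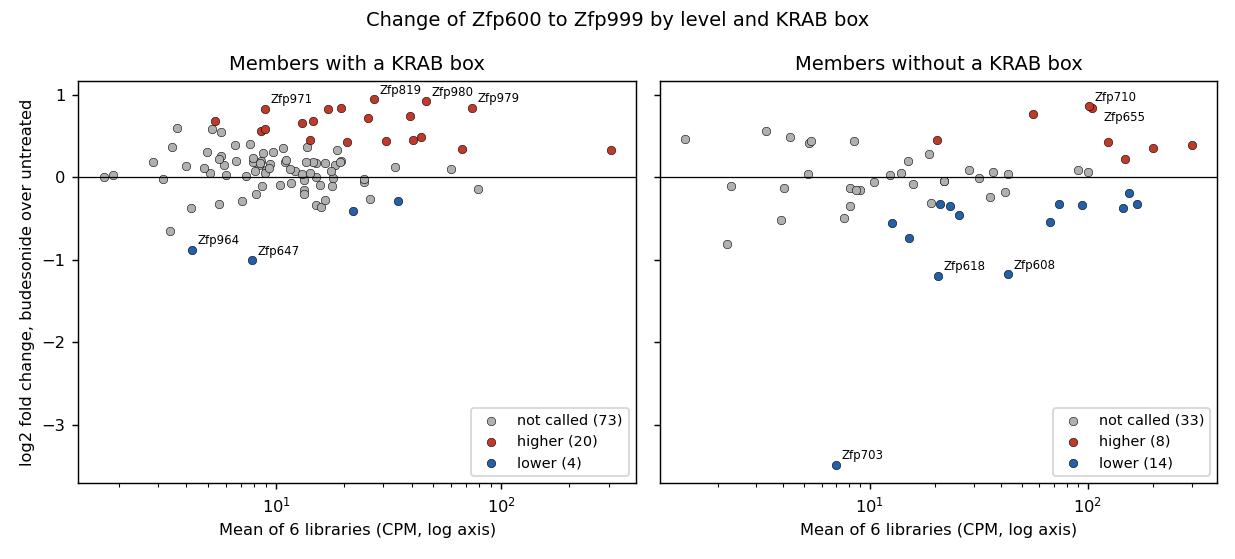
Each point is 1 tested member, with the mean of the 6 libraries (CPM, log axis) on the x axis and the log2 fold change of budesonide over untreated on the y axis; the left panel holds 97 members with a KRAB box and the right panel 55 without, and colours mark the edgeR call. Red points (20 and 8) lie above 0 and blue points (4 and 14) below it, and Zfp703 stands apart at -3.48. The 6 tested members with no protein model are not plotted.

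The counts of the KRAB and other members differed by level. Among members with a mean of 10 to 50 CPM, 13 of 48 with a KRAB box rose and 2 fell, whereas 1 of 23 without the box rose and 7 fell. Above 50 CPM, 3 of 5 KRAB members rose and 0 fell, and of 15 members without the box 7 rose and 6 fell. Below 10 CPM few calls were made: 4 of 44 tested KRAB members rose and 2 fell, and of 17 without the box 0 rose and 1 fell. The share of members called rose with level, both with a KRAB box and without it. Small changes pass more readily at a high level, so counts at different levels are not compared like for like. Shares of all tested genes at these levels are not given here. The KRAB counts include the run of near copies on chromosome 4. The differences between these counts were not tested. KRAB members had a median of 11 finger matches and a protein of 525.5 residues in the median, and members without the box had 7 and 623. By number, the members from Zfp900 on held 18 of the 30 rises (31.6% of 57 tested, against 15.2% of all tested genes) and 1 fall, and those from Zfp600 to Zfp699 held 13 of the 18 falls (31.7% of 41 tested, against 13.5%) and 6 rises. Of the 18 rises from Zfp900 on, 9 belong to the run of neighbours on chromosome 4 described next, so these are not separate observations.

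The rises clustered at 1 place in the genome, a run of neighbouring members on chromosome 4 from Zfp990 to Zfp933. A run was taken as at least 5 members with no more than 3 other coding genes between neighbours, in the gene order of GENCODE M21 (GRCm38), and this one was chosen after its values were seen. It holds 17 members, all with a KRAB box, of which 16 were tested. Of these, 10 rose and 0 fell, and all 16 log2 fold changes were positive, with a median of 0.52 and a range of 0.04 to 0.92. This is 62.5% called higher, against 15.2% of all tested genes. The summed level of the run was 496, 590 and 597 CPM untreated and 798, 805 and 745 CPM with budesonide. All KRAB members summed to 1528, 1724 and 1748 CPM untreated and to 2000, 2038 and 1889 CPM with budesonide. In both sums untreated replicate 1 lay below the other untreated libraries. Leaving the run out, the 81 tested KRAB members elsewhere gave 10 rises (12.3%) and 4 falls (4.94%), with a median of 0.11.

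These genes are copies of each other, which is visible in their promoters. RefSeq gives windows of 300 bases (250 before and 50 after each start, GRCm38.p6) for 149 of the members, and for 11 members of the run. In 9 of these 11 a window was 69.0 to 96.3% identical to those of the other 8, and 44.7 to 55.0% identical to the remaining windows of the run. The windows of 4 genes that rose (Zfp980, Zfp600, Zfp979, Zfp984), of 1 that did not pass the test (Zfp987) and of Zfp933, whose window is outside the family, are printed to show what the family shares. They lie at chr4:145670447-145670746 (plus strand) for Zfp980, chr4:146097062-146097361 (plus) for Zfp987, chr4:146156577-146156876 (plus) for the first start of Zfp600, chr4:147642459-147642758 (minus) for Zfp979, chr4:147809739-147810038 (minus) for Zfp984 and chr4:147848369-147848668 (minus) for Zfp933. Capitals mark the 3 stretches of at least 8 bases that are identical in all 9 family windows.
Zfp980: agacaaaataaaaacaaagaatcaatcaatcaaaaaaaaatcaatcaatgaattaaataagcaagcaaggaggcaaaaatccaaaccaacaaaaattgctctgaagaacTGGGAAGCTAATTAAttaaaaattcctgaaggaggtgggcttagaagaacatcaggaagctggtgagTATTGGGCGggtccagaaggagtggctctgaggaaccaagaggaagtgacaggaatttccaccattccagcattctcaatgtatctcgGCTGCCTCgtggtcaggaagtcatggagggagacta
Zfp987: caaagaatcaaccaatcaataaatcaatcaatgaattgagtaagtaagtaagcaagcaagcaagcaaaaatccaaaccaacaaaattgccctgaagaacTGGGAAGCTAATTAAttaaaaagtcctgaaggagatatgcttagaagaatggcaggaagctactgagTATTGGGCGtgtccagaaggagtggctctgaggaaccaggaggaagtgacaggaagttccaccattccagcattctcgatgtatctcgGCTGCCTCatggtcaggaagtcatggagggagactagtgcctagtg
Zfp600: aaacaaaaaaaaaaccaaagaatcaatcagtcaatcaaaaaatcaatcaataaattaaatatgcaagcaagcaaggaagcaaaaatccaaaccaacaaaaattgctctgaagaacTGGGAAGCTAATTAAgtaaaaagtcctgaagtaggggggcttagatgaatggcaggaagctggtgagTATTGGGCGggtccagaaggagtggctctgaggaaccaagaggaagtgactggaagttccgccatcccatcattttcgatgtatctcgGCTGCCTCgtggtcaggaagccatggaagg
Zfp979: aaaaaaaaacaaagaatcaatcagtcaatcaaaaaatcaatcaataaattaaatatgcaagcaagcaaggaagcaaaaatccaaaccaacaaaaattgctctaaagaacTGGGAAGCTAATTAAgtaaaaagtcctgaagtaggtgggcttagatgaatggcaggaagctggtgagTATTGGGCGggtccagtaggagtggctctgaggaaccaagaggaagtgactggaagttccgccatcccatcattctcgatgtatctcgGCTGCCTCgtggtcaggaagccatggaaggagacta
Zfp984: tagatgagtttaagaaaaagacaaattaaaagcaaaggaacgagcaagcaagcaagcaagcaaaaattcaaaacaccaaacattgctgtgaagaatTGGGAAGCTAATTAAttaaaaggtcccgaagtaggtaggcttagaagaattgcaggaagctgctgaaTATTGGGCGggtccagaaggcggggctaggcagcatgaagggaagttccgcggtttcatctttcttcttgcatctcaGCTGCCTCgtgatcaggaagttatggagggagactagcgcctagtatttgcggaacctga
Zfp933: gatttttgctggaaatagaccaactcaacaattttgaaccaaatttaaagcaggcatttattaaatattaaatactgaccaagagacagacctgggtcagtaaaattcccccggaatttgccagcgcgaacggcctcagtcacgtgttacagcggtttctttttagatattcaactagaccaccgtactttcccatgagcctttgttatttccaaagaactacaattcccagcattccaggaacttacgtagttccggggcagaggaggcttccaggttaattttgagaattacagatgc

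In the Zfp980 window the stretch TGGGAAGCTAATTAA spans positions -141 to -127 relative to the start, TATTGGGCG spans -74 to -66, and GCTGCCTC spans 14 to 21. The longest stretch was rare: on either strand it occurred in 12 of all 32851 RefSeq windows (0.0365%), all of them on chromosome 4. These 12 genes were the 9 family members and Gm13212, Rex2 and Zfp534, which lie in the same run. Of the 11 that were tested, 8 rose and 0 fell, with a median log2 fold change of 0.63. Of all tested genes 15.2% rose and 13.5% fell. The stretch was taken from the windows of these 9 members, in a run chosen after its values were seen. Counts of rises among its genes are therefore no separate evidence about the stretch. The 9-base stretch, which holds the reverse complement of the CCAAT box, occurred in 39 windows (0.119%), and its 26 tested genes gave 10 rises and 2 falls. The 8 rises counted for the longest stretch are among these 10. The other rises were Herc2 and Rpl10, and the falls were Ankrd50 and Stard13. The 8-base stretch occurred in 3.24% of windows, and its 545 tested genes gave 88 rises and 88 falls. A match is a description of letters, not a binding site.

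Zfp987, Zfp981 and Zfp988 carry all 3 stretches and did not pass the test, although Zfp988 (edgeR adjusted p = 0.064) passed without budesonide replicate 1 (0.0427). Zfp987 was at 7.32, 12.1 and 11.3 CPM untreated and at 9.72, 13.5 and 12.7 CPM with budesonide, and the groups overlap. Zfp933, whose window was 52.7% identical to that of Zfp980, was at 10.5, 15.7 and 12.4 CPM untreated and 15.9, 11.3 and 12.5 CPM with budesonide. Its groups overlap too, and its log2 fold change was 0.04 ± 0.16 (SE, edgeR adjusted p = 0.892), which turns negative with upper quartile scaling (-0.014) and with no scaling factors (-0.039).

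**Figure D2:**
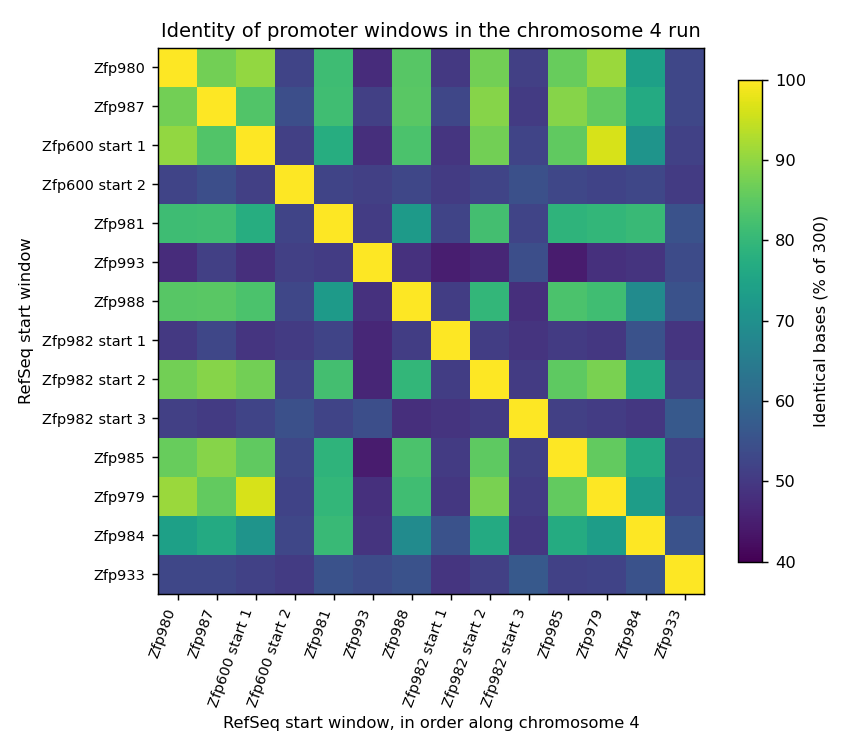
Each cell gives the percent of identical bases, of 300, between the RefSeq start windows of 2 genes of the chromosome 4 run, in gene order along both axes, on the colour scale from 40 to 100. The 9 family windows form the green and yellow cells (69.0 to 96.3%), and the windows of Zfp933, Zfp993 and the other starts of Zfp600 and Zfp982 stay in the dark range.

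The glucocorticoid receptor's palindrome was also searched for, since budesonide acts through that receptor. On both strands, GNACA followed after any 3 bases by TGTNC was found in 0 of the members' 179 windows and in 0.475% of all windows. With so low a share over all windows, 0 in 179 cannot show that the members have fewer matches than other genes. The shorter AGAACA, which overlaps the first part of that motif in some sites, was found in 16.2% of the members' windows and 19.0% of all. The CCAAT box was found in 58.7% of the members' windows, against 37.4% of all windows, and in 9 of the 9 family windows. That 9 of 9 was fixed in advance, since the 9-base stretch shared by these windows holds the reverse complement of the box. A TATA box written as TATAAA was found in 5.03% of the members' windows and 13.6% of all. No match says only that these letters are not in this window.

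Within the run, Zfp980 showed the highest log2 fold change. It was at 25.3, 33.9 and 36.5 CPM in the untreated libraries and at 61.7, 60.3 and 59.4 CPM with budesonide. All 3 budesonide libraries lay above all 3 untreated ones, and the log2 fold change was 0.92 ± 0.10 (SE, n = 3 per group, edgeR adjusted p = 1.08e-10). Zfp979 was at 50.9, 49.5 and 58.9 CPM untreated and at 92.0, 101 and 93.0 CPM with budesonide. It rose without overlap, with a log2 fold change of 0.85 ± 0.08 (edgeR adjusted p = 1.88e-12). Zfp992 was at 9.45, 13.4 and 13.8 CPM untreated and at 20.4, 19.7 and 25.6 CPM with budesonide. Its rise was 0.83 ± 0.15 (edgeR adjusted p = 1.14e-05).

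Zfp982, which has been reported to sustain stem cell characters through Nanog, Zfp42 and Dppa3, belongs to the same run. It was at 12.3, 13.9 and 15.4 CPM untreated and at 24.2, 25.0 and 25.7 CPM with budesonide. The groups were well apart, with a log2 fold change of 0.85 ± 0.13 (edgeR adjusted p = 7.33e-07). Of the 3 genes in its reported target set, Nanog rose by 0.50 and Zfp42 by 1.32 on the log2 scale, and Dppa3 had too few reads for a test.

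Zfp990 opens the run and had the highest level of all members per length of transcript, 88.9 CPM per kb untreated and 112 CPM per kb with budesonide. Its libraries gave 228, 296 and 288 CPM untreated and 349, 356 and 318 CPM with budesonide. They do not overlap, although untreated replicate 1 lies well below the other untreated libraries. The log2 fold change was 0.33 ± 0.08 (edgeR adjusted p = 0.0023), and with upper quartile scaling the adjusted p was 0.0683. The other rises of the run were Zfp978 (0.73), Zfp600 (0.68), Zfp991 (0.68), Zfp984 (0.49) and Zfp985 (0.34) as log2 fold changes. Zfp991 is a low gene whose call was lost with DESeq2 (adjusted p = 0.116), with no filter (0.0663), and in edgeR without replicate 2 (0.0645) or 3 (0.0546) of the untreated group or budesonide replicate 1 (0.152).

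**Figure D3:**
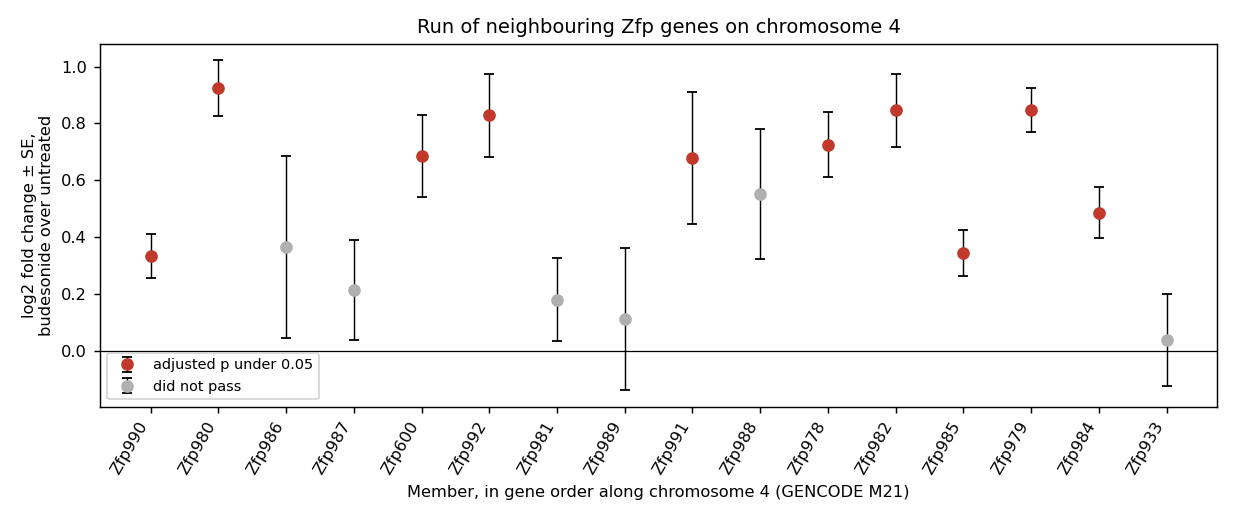
Points give the log2 fold change of budesonide over untreated (y axis) for the 16 tested members of the chromosome 4 run in gene order (x axis), with bars of ± 1 SE from edgeR; red marks an adjusted p under 0.05. All 16 points lie above 0, from 0.04 for Zfp933 at the right end to 0.92 for Zfp980.

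Reads from such copies can be assigned to the wrong gene. Of the stretches of 50 bases in a run member's longest transcript, a median of 68.1% also occurred in transcripts of another gene, against 0.62% for the other members. Zfp987 shared 92.1% and Zfp600 83.3%, whereas Zfp982 shared 11.9%, Zfp985 16.2%, Zfp979 24.6% and Zfp990 26.0%, and these 4 rose. Zfp933, the member of the run that shared least (1.07%), did not pass the test. How the counting treated reads that fit several genes is not given in the sources used here, so the value of a single heavily shared gene is uncertain. Over all members, the 49 tested KRAB genes with under 5% shared gave 5 rises (10.2%) and 3 falls (6.12%). The 48 with 5% or more gave 15 rises (31.2%) and 1 fall (2.08%). All 10 rises of the chromosome 4 run are among these 15, so the higher share is not separate from that of the run. Of all tested genes 15.2% rose and 13.5% fell, and the KRAB genes that share little had lower shares of both. A positive value was found in 71.4% of the KRAB genes with under 5% shared and in 75.0% of the others. Over all tested genes it was 48.1%. The medians were 0.10, 0.23 and -0.02 in the same order. The differences between these sets were not tested.

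Zinc finger genes of the run that carry other names moved the same way. Rex2 was at 12.7, 16.2 and 15.2 CPM untreated and at 23.5, 24.9 and 27.2 CPM with budesonide, a rise of 0.77 (log2; edgeR adjusted p = 4.88e-06). Zfp534 rose by 0.63 (edgeR adjusted p = 4.25e-06) and Gm21411 by 0.50 (edgeR adjusted p = 1.95e-05). These 3 were chosen after their values were seen, and the first pair carries the 15-base stretch. The genes just outside the run, Tnfrsf8 on one side (log2 fold change 0.51 ± 0.32, edgeR adjusted p = 0.251) and Miip on the other (-0.39 ± 0.21, edgeR adjusted p = 0.169), did not pass the test.

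Other runs of members did not give such counts. On chromosome 17 all 22 members were tested and 0 passed, with log2 fold changes from -0.37 to 0.60, and 13 of them form a run from Zfp948 to Zfp945. A run of 6 on chromosome 7, from Zfp771 to Zfp689, gave 0 calls. On chromosome 8 the 6 members from Zfp930 to Zfp866 all had negative values, with a median of -0.32, and 2 of them (Zfp964 and Zfp866) fell. Chromosome 2 held 15 members, of which 7 had too few reads for a test.

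**Figure D4:**
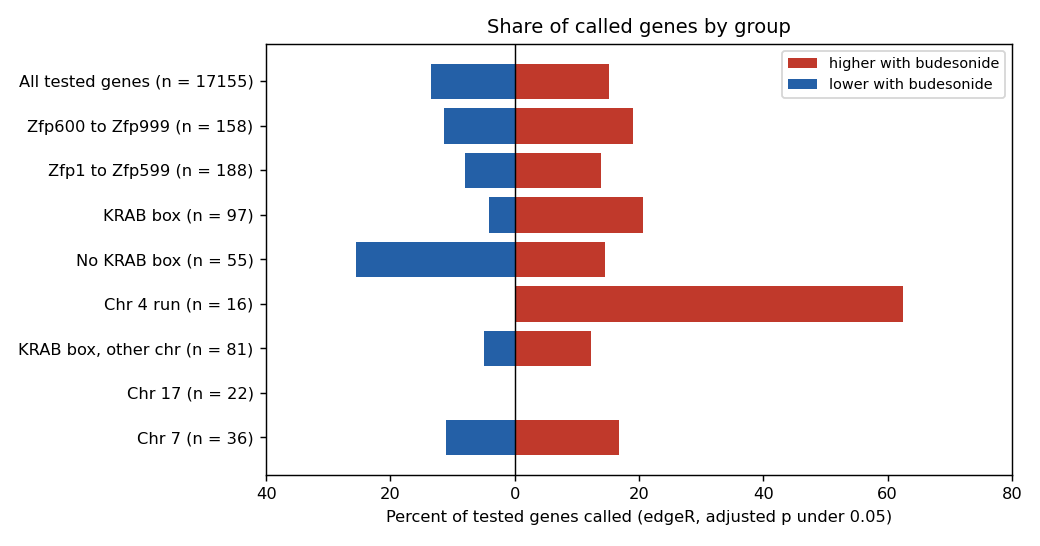
Bars give the percent of tested genes called higher (red, to the right) and lower (blue, to the left) by edgeR at an adjusted p under 0.05, for all 17155 tested genes and for groups of members, with the number tested in brackets. The chromosome 4 run stands at 62.5% higher and 0% lower, members without a KRAB box at 14.5% and 25.5%, and chromosome 17 at 0% on both sides.

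Members known to silence retroviruses did not move together. Zfp819, which binds Trim28 and represses retrotransposons, was at 17.1, 17.9 and 20.9 CPM untreated and at 35.9, 31.6 and 40.4 CPM with budesonide. It showed the highest rise of all members, a log2 fold change of 0.95 ± 0.12 (edgeR adjusted p = 6.68e-09), and only 0.56% of its 50-base stretches are shared. Zfp961, which recognises the primer binding site for lysine tRNA in proviruses, was at 32.6, 34.6 and 36.3 CPM untreated and at 45.9, 53.1 and 41.9 CPM with budesonide. It rose by 0.45 ± 0.10 (edgeR adjusted p = 2.19e-04). Zfp809, which recognises the primer binding site for proline tRNA and starts the silencing of such proviruses, was at 32.9, 29.5 and 34.6 CPM untreated and at 34.5, 37.1 and 34.0 CPM with budesonide. Its groups overlap and its log2 fold change of 0.13 ± 0.10 did not pass the test (edgeR adjusted p = 0.386).

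Zfp932, which with its neighbour Gm15446 binds retroviruses of the ERVK group, was at 9.76, 16.6 and 14.1 CPM untreated and at 13.5, 14.7 and 11.4 CPM with budesonide. The groups overlap (log2 fold change -0.03 ± 0.16, edgeR adjusted p = 0.933). Gm15446 did not pass the test either (0.12). Zfp708, which binds RMER19B repeats, had 0 reads in every library, but all of its transcript is shared with Gm28557, so the count says little about the gene. Zfp661, which limits CTCF at protocadherin genes, was at 6.10, 8.16 and 9.90 CPM untreated and at 9.02, 11.2 and 6.25 CPM with budesonide, and did not pass the test.

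Further rises among KRAB members were Zfp971 on chromosome 2 and, chosen after their values were seen, Zfp936, Zfp950, Zfp977, Zfp951, Zfp975, Zfp941 and Zfp808. Zfp971 was at 5.64, 5.91 and 7.70 CPM untreated and at 11.4, 9.12 and 13.97 CPM with budesonide, a log2 rise of 0.83 ± 0.19 (edgeR adjusted p = 6.19e-04). It shares 40.1% of its 50-base stretches, chiefly with Gm14288. Zfp936, on chromosome 7, rose from a mean of 29.4 to 49.2 CPM, and the others rose by 0.43 to 0.66 on the log2 scale.

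The 4 members that fell and in which the pattern found a KRAB box were Zfp647, Zfp964, Zfp866 and Zfp606. Zfp647 was at 11.3, 11.4 and 8.80 CPM untreated and at 5.78, 4.41 and 5.52 CPM with budesonide, a fall without overlap to less than 6 CPM in every treated library. Its log2 fold change was -1.01 ± 0.20 (edgeR adjusted p = 7.22e-05). Zfp964 was at 5.79, 4.78 and 5.97 CPM untreated and at 2.40, 4.27 and 2.21 CPM with budesonide, a log2 fold change of -0.87 ± 0.27 (edgeR adjusted p = 0.0123). That call was lost with DESeq2 (adjusted p = 0.091) and in edgeR when untreated replicate 3 (0.0565), or replicate 1 (0.0829) or 3 (0.0632) of the budesonide group, was left out. Zfp606, chosen after its values were seen, fell by 0.41 on the log2 scale.

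The largest fall of all members was that of Zfp703, a corepressor of the NLZ family that has no KRAB box and in the fish embryo helps to pattern the hindbrain. Its counts were 86, 85 and 87 reads in the untreated libraries and 10, 8 and 4 reads with budesonide, or 13.1, 11.95 and 13.7 CPM against 1.41, 1.18 and 0.735 CPM. Every treated library lay far below every untreated one. The level was 11.2-fold lower, a log2 fold change of -3.48 ± 0.26 (edgeR adjusted p = 4.25e-15). It was the single tested member that reached the filter level in 1 group only, so it had to differ to be tested.

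Zfp704, a further member without a KRAB box, was at 106, 103 and 106 CPM untreated and at 137, 137 and 152 CPM with budesonide. It rose without overlap, with a log2 fold change of 0.43 ± 0.07 (edgeR adjusted p = 7.77e-07).

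The paralogs Zfp608 and Zfp609 both fell. Zfp608, known to repress the Rag genes in thymocytes, was at 61.0, 59.2 and 59.1 CPM untreated and at 24.4, 26.0 and 29.6 CPM with budesonide. The fall left no treated library above 30 CPM, and the log2 fold change was -1.17 ± 0.09 (edgeR adjusted p = 2.69e-14). Zfp609, which joins the cohesin loader Nipbl and the Integrator complex, was at 161, 162 and 171 CPM untreated and at 134, 120.1 and 128 CPM with budesonide. Its fall was smaller, with a log2 fold change of -0.37 ± 0.06 (edgeR adjusted p = 7.99e-06), and the groups did not overlap.

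**Figure D5:**
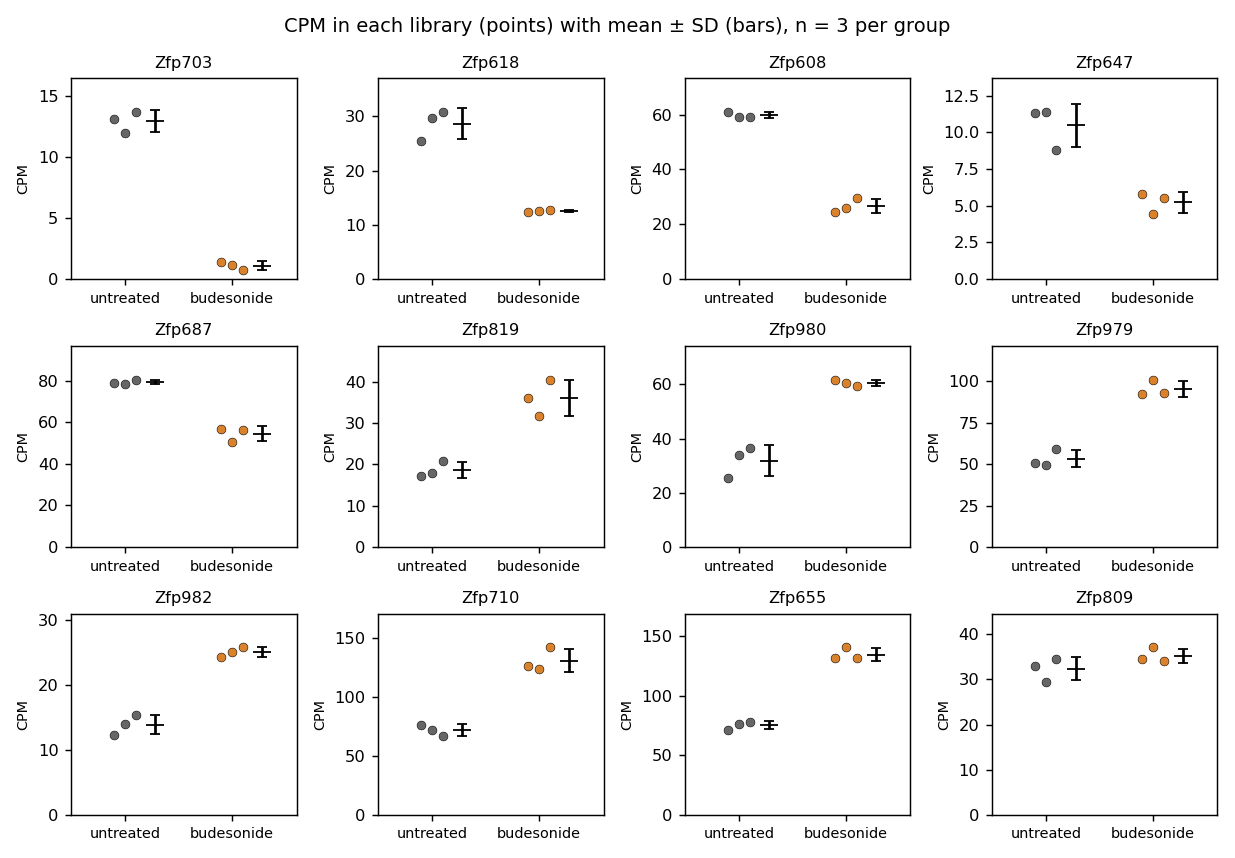
Points give the CPM of 12 members in each library (grey untreated, orange budesonide), and the bars beside them the mean ± SD of 3 libraries; each y axis starts at 0 and has its own range. In the 5 members Zfp703, Zfp618, Zfp608, Zfp647 and Zfp687 all orange points lie below all grey ones, in Zfp819, Zfp980, Zfp979, Zfp982, Zfp710 and Zfp655 above, and in Zfp809 the groups overlap.

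Members that work with chromatin enzymes changed in both directions. Zfp618, a partner of the 5-hydroxymethylcytosine reader Uhrf2, was at 25.5, 29.7 and 30.8 CPM untreated and at 12.4, 12.5 and 12.7 CPM with budesonide. Treated libraries were nearly equal and all below the untreated ones, with a log2 fold change of -1.19 ± 0.13 (edgeR adjusted p = 1.91e-10). Zfp687, a subunit of a complex with Zmynd8, was at 78.7, 78.6 and 80.4 CPM untreated and at 56.8, 50.5 and 56.3 CPM with budesonide. The groups are apart, with a log2 fold change of -0.54 ± 0.08 (edgeR adjusted p = 1.69e-07).

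Zfp644, which targets the histone methyltransferases G9a and GLP, was at 189, 191 and 182 CPM untreated and at 155, 148 and 146 CPM with budesonide, a fall of -0.32 ± 0.06 (edgeR adjusted p = 3.54e-05). Zfp827, which recruits the NuRD complex to telomeres, was at 82.0, 82.5 and 82.3 CPM untreated and at 63.5, 66.5 and 67.1 CPM with budesonide, a fall of -0.33 ± 0.07 (edgeR adjusted p = 3.84e-04). In both genes the groups did not overlap. Zfp711, which brings the demethylase Phf8 to promoters, had a mean of 3.59 CPM untreated and 4.98 CPM with budesonide, with overlapping groups, and did not pass the test (edgeR adjusted p = 0.179).

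Zfp638 (NP220), which silences unintegrated retroviral DNA with the HUSH complex, was at 248, 256 and 277 CPM untreated and at 354, 351 and 322 CPM with budesonide. No library of one group reached into the other, and the log2 fold change was 0.40 ± 0.06 (edgeR adjusted p = 4.42e-07). Zfp652, a partner of the corepressor Cbfa2t3, was at 178, 176 and 171 CPM untreated and at 233, 216 and 222 CPM with budesonide, a rise of 0.36 ± 0.06 (edgeR adjusted p = 4.46e-06). Both belong, with Zfp990, Zfp644 and Zfp646, to the 5 members of highest mean CPM.

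The largest rises without a KRAB box were those of Zfp710 and Zfp655. Zfp710 was at 76.2, 72.1 and 66.3 CPM untreated and at 126, 124 and 142 CPM with budesonide, a rise of 0.86 ± 0.07 (edgeR adjusted p = 1.01e-13). Zfp655 was at 71.3, 76.5 and 77.9 CPM untreated and at 132, 140.4 and 131 CPM with budesonide, a rise of 0.84 ± 0.07 (edgeR adjusted p = 4.45e-14). Neither gene shares any 50-base stretch with another gene, and in both every treated library exceeded every untreated one. Zfp654, chosen after its values were seen, rose from a mean of 41.6 to 70.7 CPM. The remaining calls outside the KRAB group, also chosen after their values were seen, were rises of Zfp740 (0.23) and Zfp839 (0.46) and falls of Zfp692 (-0.45) and Zfp664 (-0.34) as log2 fold changes, and Zfp998, with no protein model, rose by 0.61.

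Falls of middle size were seen for Zfp651 and Zfp629. Zfp651 was at 21.95, 17.2 and 17.8 CPM untreated and at 13.4, 8.39 and 12.3 CPM with budesonide, a log2 fold change of -0.74 ± 0.15 (edgeR adjusted p = 1.69e-04). Zfp629 was at 14.6, 14.1 and 16.7 CPM untreated and at 10.4, 10.3 and 10.1 CPM with budesonide, a log2 fold change of -0.55 ± 0.15 (edgeR adjusted p = 0.004), which DESeq2 did not call (adjusted p = 0.0571). Groups of both genes were apart. Zfp746 (PARIS), a repressor of the mitochondrial regulator Ppargc1a, was at 30.6, 23.8 and 23.9 CPM untreated and at 19.4, 21.5 and 20.6 CPM with budesonide. Its fall of -0.35 ± 0.12 (edgeR adjusted p = 0.026) leaned on untreated replicate 1, without which the adjusted p was 0.281, and it was also lost without budesonide replicate 1 (0.118), with DESeq2 (0.170), limma (0.0544) or the GC and length offset (0.142).

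Several members with known roles in general or developmental cell functions did not pass the test. Zfp706, which promotes the exit from pluripotency, was at 83.1, 93.9 and 85.3 CPM untreated and at 91.0, 92.7 and 96.5 CPM with budesonide (log2 fold change 0.09 ± 0.07, edgeR adjusted p = 0.363). Its groups overlap, as do those of Zfp622, a maturation factor of the large ribosomal subunit, with means of 97.4 and 102 CPM, and of Zfp830 (Omcg1), needed for survival of the inner cell mass, with means of 36.1 and 37.8 CPM. Zfp750, a regulator of epidermal differentiation, had means of 7.14 and 9.73 CPM (edgeR adjusted p = 0.0903). Without budesonide replicate 2 its log2 fold change of 0.44 became 0.64 and passed (edgeR adjusted p = 0.0139).

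Calls next to the threshold of 0.05 were unsettled. The 3 members just inside it were Zfp866 (adjusted p = 0.0265), Zfp640 (0.0409) and Zfp668 (0.0485) by edgeR, and the 3 just outside were Zfp939 (0.0531), Zfp697 (0.0539) and Zfp930 (0.0562). Zfp640 and Zfp939 are annotated as pseudogenes in GENCODE M21. Leaving out 1 library ended the call of Zfp668 in 5 of 6 cases and that of Zfp646 in 5 of 6 cases. Zfp646, one of the 5 members of highest mean CPM, was at 169, 162 and 163 CPM untreated and at 146, 132 and 155 CPM with budesonide (log2 fold change -0.19 ± 0.06, edgeR adjusted p = 0.0176). The call of Zfp866 ended without untreated replicate 2 (adjusted p = 0.0869), untreated replicate 3 (0.161) or budesonide replicate 3 (0.142), and that of Zfp640 without replicate 1 of the untreated group (0.329) or replicate 1 (0.0914) or 2 (0.135) of the treated group. In turn Zfp939 passed without untreated replicate 3 (0.0418), Zfp697 without budesonide replicate 3 (0.039) and Zfp930 without budesonide replicate 1 (0.0187).

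The 20 members with too few reads for a test stayed at or below 3.37 CPM in every library, and 15 of them have a KRAB box. Zfp708, Zfp968 and Zfp969 had 0 reads in all 6 libraries. All 50-base stretches of these 3 genes also occur in another gene (Gm28557 for Zfp708, Zfp966 for the other two), and the treatment of such reads is unknown, so a count of 0 sets no limit on their level.

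The partners of the KRAB proteins were read from a list of 39 genes for Trim28, Setdb1 and the machinery around them, all of which were tested. Of these, 13 rose (33.3%) and 8 fell (20.5%), against 15.2% and 13.5% of all tested genes, with a median log2 fold change of 0.04. The median level was 169.8 CPM in the list and 11.2 CPM over all tested genes. Small changes pass more readily at a high level, so these shares are not compared like for like. Trim28 itself was at 798, 794 and 791 CPM untreated and at 822, 781 and 856 CPM with budesonide, and its groups overlap (log2 fold change 0.04 ± 0.05, edgeR adjusted p = 0.582). Setdb1 was at 107, 112 and 122 CPM untreated and at 131, 129 and 125 CPM with budesonide, a rise of 0.17 ± 0.07 that lay close to the threshold (edgeR adjusted p = 0.0454). It was lost when replicate 1 (0.153) or 2 (0.151) of the untreated group or replicate 1 (0.151) or 2 (0.0509) of the treated group was left out, with DESeq2 (0.0809), with upper quartile scaling (0.162) or no scaling factors (0.288), and with no filter (0.276).

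The largest rise in that list was that of Zfp57, the KRAB protein that guards imprinted methylation, at 101, 97.6 and 107 CPM untreated and 290.1, 264 and 267 CPM with budesonide (log2 fold change 1.43 ± 0.06, edgeR adjusted p = 4.86e-23). The DNA methyltransferase Dnmt3a rose by 0.64 and Trim24, a relative of Trim28, by 0.62 on the log2 scale. Dnmt3b fell by 0.59, and the HUSH subunit Pphln1 fell by 0.82. Of the other HUSH subunits in the list, named after their values were seen, Tasor rose by 0.48 (edgeR adjusted p = 7.41e-09) and Mphosph8 did not pass the test (0.16, edgeR adjusted p = 0.0625). A list of 17 genes of the 2-cell stage and of retroviral origin, among them genes that Trim28 represses in stem cells, had 9 tested genes, of which 1 rose (AU018091; 11.1%, against 15.2% of all tested genes) and 4 fell (Zscan4c, Zscan4d, Usp17lb and Usp17lc; 44.4%, against 13.5%). These 4 belong to families of near copies and had means under 4 CPM.

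The lower numbers of the same name series were counted for comparison. Of 202 genes from Zfp1 to Zfp599, 188 were tested, 26 rose and 15 fell, which is 21.8% called against 30.4% of the high-numbered members and 28.7% of all tested genes. Rises made up 13.8% and falls 7.98%, against 19.0% and 11.4% in the high-numbered members. The median log2 fold change was 0.07 there and 0.09 in the high-numbered members. The difference between the 2 shares was not tested.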

How the data were processed

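mRNA of 6 libraries was sequenced with a strand-specific kit, per the labels' protocols. As tools, the submitters' processing notes list STAR 2.7.5c, featureCounts 2.0, cutadapt 2.5, bcl2fastq and DESeq2, and as build GRCm39. No source used here gives the annotation or strand setting of the counting, so overlapping antisense genes cannot be told apart. The authors deposited raw read counts per gene symbol. They also deposited a normalized signal table, whose values equalled the counts over a single factor for each library when checked (largest difference 0.0056 reads).

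The counts were tested with edgeR 4.0.16 in R 4.3.3: a filterByExpr filter at a count of 10 and a total of 15, TMM factors, robust quasi-likelihood fits on group over 17155 genes, and Benjamini-Hochberg adjustment at 0.05. Libraries differed within groups by a coefficient of variation of 5.73%. Pairs within a group gave a chi-square per gene of 1.42 (untreated 2 and 3) to 3.13, where 1 is sampling noise. None was therefore the same library sequenced again, but this does not show that the libraries came from separate cultures. SEs come from the F statistic. Fold changes are budesonide over untreated. The fit was tested on simulated data with 50 genes changed at each of 4 sizes. It called 22% of the 1.25-fold changes, 48% of the 1.5-fold, 78% of the 2-fold and 90% of the 4-fold, with 4 false calls. A gene that did not pass may therefore still have changed by a small amount.

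Alternatives were DESeq2 1.42.0, other scalings and filters, a replicate block, a threshold of 0.01, limma 3.58.1 on log2 of the deposited normalized signal plus 1, an offset for GC content and length, and each library left out. The members and lists were chosen with earlier results of these data known.

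Finger counts and the KRAB box (a pattern match before the first C2H2 finger) came from each gene's longest coding sequence in GENCODE M21. That annotation holds 174 of the members. The design had named RefSeq proteins, not used here, and ordinary as well as variant boxes can be missed. Promoters are RefSeq's GRCm38.p6 windows, aligned pairwise and with MAFFT 7.526. Genes were named by rule: 22 members of known role, the 8 largest rises and falls among calls with a mean of at least 2 CPM and no overlap, the 5 of highest mean, the 3 nearest each side of the threshold, and Trim28, Setdb1 and up to 3 rises and falls of the corepressor list. Others are said to be chosen after their values were seen. One gene that the rule takes is not reported here.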

Additional observations from a re-analysis of the deposited data

How the results depend on the processing

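The members called numbered 35 to 54 under the alternatives, against 48. DESeq2 gave 25 higher and 10 lower, limma 32 and 14, an adjusted p under 0.01 gave 26 and 13, and both upper quartile scaling and no scaling factors gave 28 and 26. The median log2 fold change of 0.09 moved to 0.040 with upper quartile scaling, to 0.014 with no scaling factors and to 0.050 with no filter on low counts, and leaving out 1 library gave 0.064 to 0.13. Over these settings the median of all tested genes ran from -0.095 to 0.026. Members with a positive value numbered 81 (no scaling factors) to 111 (DESeq2), against 99. The chromosome 4 run had 9 or 10 rises in each of these settings. The settings for the KRAB counts and for the run were applied after the data were seen. Of 41 called genes followed, 31 kept their call in every alternative that gave a value, and of 18 uncalled ones 6 were called in at least 1. Trim28 passed with the GC and length offset (0.20, edgeR adjusted p = 0.00677).

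Among the genes followed, signs turned only in those that did not pass the test. With upper quartile scaling Trim28 was at -0.0077 and Zfp933 at -0.014, and with no scaling factors Trim28 was at -0.034, Zfp933 at -0.039, Zfp622 at -0.018 and Zfp830 at -0.0073. Zfp932 was at 0.019 with limma. Leaving out 1 library gave -0.20 to 0.16 for Zfp932, -0.12 to 0.22 for Zfp933, -0.036 to 0.33 for Zfp661, -0.039 to 0.29 for Zfp989 and -0.045 to 0.16 for Zfp622. The cause was not tested.

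The labels do not say what a shared replicate number marks. Deviations of same-numbered libraries correlated at 0.040, 0.059 and -0.018, so no pairing was shown. With the replicate block, 50 members were called (31 higher, 19 lower) and 40 of the Zfp1 to Zfp599 genes, the median was 0.094, 20 KRAB members and 10 of the run rose, 98 members were positive and the run's median was 0.52. Zfp939 (adjusted p = 0.0454) and Zfp930 (0.0427) passed and Setdb1 did not (0.0505).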

Other observations

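Other zinc finger families were counted under the same edgeR test after the data were seen. Of 38 tested Zbtb genes, which pair fingers with a BTB domain, 7 rose (18.4%) and 5 fell (13.2%), with a median log2 fold change of 0.06. Of 15 tested Zscan genes, which carry a SCAN domain, 0 rose and 4 fell (26.7%). Of 11 tested Zkscan genes, which carry both a SCAN domain and a KRAB box, 2 rose (18.2%) and 0 fell. Of 15 tested Zc3h genes, whose CCCH fingers bind RNA, 2 rose (13.3%) and 4 fell (26.7%). Symbols from Zfp600 to Zfp999 that end in a letter gave 2 rises (22.2%) and 0 falls in 9 tested genes. The background is 15.2% higher and 13.5% lower over all tested genes, and the Zbtb shares lie near it. The families are small, and differences from the background were not tested.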
